A study of Homo sapiens with 8 samples.

Results

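The genes described here are DEPTOR, MTOR, RPTOR, RICTOR, INPP4B and PHLPP1, a kinase, its scaffolds and its brakes in PI3K, AKT and mTOR signalling. Open chromatin was read at 60 peaks, all those whose nearest annotated transcript in the deposited table belongs to one of the 6 genes, out of 62528 peaks in all. The peaks were 10 for DEPTOR, 2 for MTOR, 14 for RPTOR, 2 for RICTOR, 17 for INPP4B and 15 for PHLPP1. Of these, 7 were promoter peaks, within 1000 bp of the annotated start, 45 lay in the gene and 8 were intergenic. The set was chosen by measured values of these same counts, in which a DEPTOR peak had been seen to be lower with pomalidomide. Changes with pomalidomide, and with the combination that contains it, are therefore given as a description, with no p, and the counts of calls in those comparisons stand beside the share of all peaks without anything being read from them. Tests are given for GNE-781 alone, for the difference between the cell lines and for the difference between the lines in a drug response. They share libraries with the comparison that chose the set, so no p is given for a drug effect at that DEPTOR peak.

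ATAC-seq, in which a transposase cuts and tags accessible DNA, was run on JJN3 and KMS11, established human cell lines of multiple myeloma, which is a plasma cell cancer. Each line was treated for 48 h with pomalidomide at 200 nM, with GNE-781 at 40 nM, with both at these doses, or with the DMSO solvent alone. Pomalidomide makes the ubiquitin ligase receptor cereblon bind IKZF1 and IKZF3, lymphoid transcription factors that are then degraded. GNE-781 is a bromodomain inhibitor of CREBBP and EP300, which acetylate histones at enhancers. There was 1 library for each line and treatment, 8 in all. Nothing in the labels says that they came from separate cultures. The p-values therefore measure only the spread between these samples, largely pooled over peaks. Each line stands for 1 tumour, and a line difference is a difference between these lines only.

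mTOR is a protein kinase that works in a pair of complexes, mTORC1, built on the scaffold RAPTOR (gene RPTOR), which drives protein synthesis and growth, and mTORC2, built on RICTOR, which phosphorylates AKT. DEPTOR binds mTOR in both complexes and inhibits it. In myeloma it is known to be abundant in tumours with translocations of cyclin D or MAF genes, where its restraint of mTORC1 relieves feedback on PI3K and keeps AKT active. INPP4B removes a phosphate from a lipid that PI3K signalling makes, and PHLPP1 removes an activating phosphate from AKT, so both act as brakes further up the pathway.

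The libraries held 1366628 to 3218581 counts in JJN3 and 2981408 to 5435673 in KMS11, with the fewest in the DMSO library of JJN3. The 60 peaks took 0.103% to 0.142% of a library's counts, and the median among them was 11.5 counts in the DMSO library of JJN3 and 56.5 in the combination library of KMS11. Of 8 plasma cell marker genes, 7 had a promoter peak, while TNFRSF17 had no peak under its symbol. Levels here are CPM, the count scaled to library size, summed over all peaks of the listed genes. For plasma cell genes they were 1030 to 1248 CPM in JJN3 and 562 to 707 CPM in KMS11. Markers of other cell types had a peak of any kind at 3 of 5 genes for T and NK cells (110 to 127 CPM in JJN3, 49.9 to 71.9 CPM in KMS11), at 2 of 5 for myeloid cells (5.3 to 13.5 and 9.1 to 14.5 CPM in the same order), at 4 of 5 for stromal cells (39.4 to 48.4 and 48.9 to 81.2 CPM) and at 3 of 5 for erythroid cells (26.4 to 40.9 and 42.3 to 58 CPM). A promoter peak was found at 1, 0, 2 and 1 of these genes in that order. CD3D, NKG7, CD14, LYZ, SPI1, DCN, GATA1 and HBA1 had no peak under their symbol. A peak at these genes given to another symbol would be missed. The part of other cells in the values below was not tested.

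With drugs, few of the 60 peaks changed, and those called over both lines were not promoter peaks by the annotated starts. Among them, neighbouring INPP4B peaks lie at or near internal RefSeq starts of that gene, described below. Levels are CPM with trimmed-mean (TMM) library scaling, and all changes are log2 changes with their SE from a model over the 8 libraries in which each line has its own base level. Calls needed an adjusted p under 0.05 over the 62234 peaks tested, which included every one of the 60. Under pomalidomide 2 peaks were called (3.33%), beside 1.25% of all peaks: a peak beyond the end of PHLPP1 was higher and a peak in DEPTOR was lower. Under the combination 7 were called (11.7%), 4 higher and 3 lower, beside 4.79% of all peaks: the same PHLPP1 peak and 3 INPP4B peaks were higher, and 2 DEPTOR peaks and 1 INPP4B peak were lower. None of the 7 promoter peaks was called under either treatment, where 0.49% and 1.69% of all promoter peaks were. MTOR, RPTOR and RICTOR had no peak called with a drug in this model over both lines. The median change over the 60 peaks was -0.06 with pomalidomide, -0.08 with GNE-781 and -0.06 with both, against 0.02, 0 and 0 over all peaks. Fewer cells with an open site and a smaller opening in each cell cannot be told apart in these bulk libraries.

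**Figure D1:**
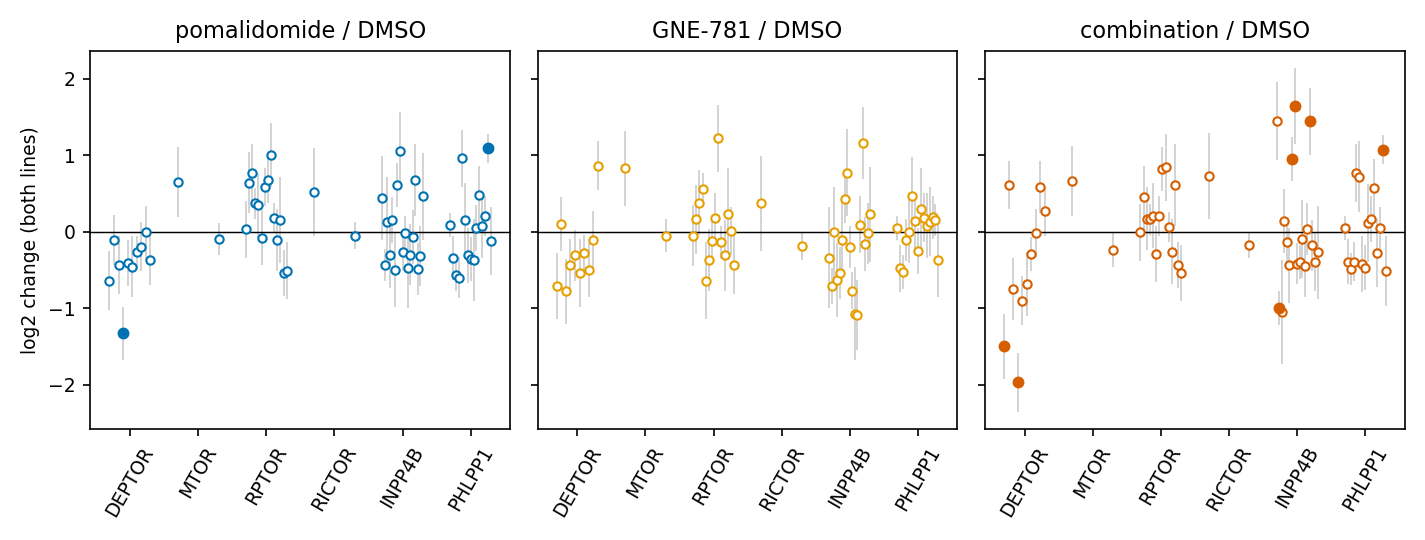
Log2 change ± SE of each of the 60 peaks in the model over both lines, by gene, under pomalidomide, GNE-781 and the combination relative to DMSO; filled points are called peaks, ordered by position within a gene. Filled points number 2 for pomalidomide, 0 for GNE-781 and 7 for the combination, in DEPTOR, INPP4B and PHLPP1.

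GNE-781 alone called 0 of the 60 peaks in edgeR's quasi-likelihood test, beside 0.0209% of all peaks. At an unadjusted p under 0.05 there were 8 (13.3%), against 6.58% of all peaks. DESeq2's Wald test called 0 with 5 at that level, beside 1277 of the 62234 peaks. The lowest adjusted p of each gene was 0.377 for INPP4B, at the peak chr4:142473466-142475142 (-0.77 ± 0.24), 0.526 for RPTOR, 0.535 for DEPTOR, 0.641 for PHLPP1, 0.82 for MTOR and 0.922 for RICTOR. Adding pomalidomide to GNE-781 gave 2 calls (3.33%), beside 1.09% of all peaks, at the PHLPP1 peak (0.92 ± 0.19) and the DEPTOR peak (-1.53 ± 0.41) that were called under pomalidomide alone. Adding GNE-781 to pomalidomide gave 0 calls in edgeR, beside 0.0112% of all peaks. At an unadjusted p under 0.05 there were 6 (10%), against 7.4% of all peaks. DESeq2 called 0, with 0 at that level, beside 1106 of all peaks. The test of additivity, the combination change less both single-drug changes, gave 0 calls in edgeR, as it did over all peaks (0%). At an unadjusted p under 0.05 there were 3 of the 60 (5%), against 2.64% of all peaks. DESeq2 called 0 there, with 1 at that level, beside 216 of all peaks.

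Within KMS11 alone, 5 of the 60 peaks were called with GNE-781 in edgeR, in DEPTOR and INPP4B. These effects come from the model with line-by-drug terms, in which the pair of libraries with a drug is set against the pair without it in each line and the drugs are taken as additive, and they were added after the results over both lines had been seen. The 5 are 8.33%, beside 1.57% of all peaks. In DESeq2's Wald test 1043 of all peaks had an unadjusted p under 0.05 for this effect. Lower were the INPP4B peaks chr4:141977331-141978189 (-0.86 ± 0.17) and chr4:142473466-142475142 (-0.62 ± 0.16). Also lower was the DEPTOR peak chr8:119909085-119909666 (-1.04 ± 0.27), whose values chose the gene. Higher were the DEPTOR peak chr8:119987491-119988272 (0.99 ± 0.24) and the INPP4B peak chr4:142817346-142817875 (1.07 ± 0.31). All 5 are a description with no p, because the combination and the libraries that chose the set enter this effect. The INPP4B peaks chr4:141977331-141978189 and chr4:142817346-142817875 were also already known as calls under the combination. All 5 calls were lost in DESeq2's Wald test, which called 0 with 4 at an unadjusted p under 0.05, and without the GNE-781 or the DMSO library of KMS11. Without the pomalidomide or the combination library of KMS11, 2 peaks were called. The difference between the lines in the GNE-781 effect was called at none of the 60. Within JJN3, 0 were called in edgeR, beside 0.172% of all peaks, with 5 (8.33%, against 10% of all peaks) at an unadjusted p under 0.05. DESeq2 called 0 there, with 2 at that level, beside 1115 of all peaks. Pomalidomide gave 3 calls in JJN3 (5%, beside 1.77% of all peaks), 1 in RPTOR and 2 in PHLPP1, and 4 in KMS11 (6.67%, beside 6.41%), 1 in DEPTOR, 1 in INPP4B and 2 in PHLPP1. In JJN3 the PHLPP1 peak chr18:63040593-63041571 was higher (0.99 ± 0.18) and chr18:62804795-62805490 lower (-0.75 ± 0.22). In KMS11 chr18:63040593-63041571 (1.05 ± 0.18), chr18:62815285-62815689 (1.23 ± 0.4) and the INPP4B peak chr4:141921173-141921593 (1.46 ± 0.42) were higher. The calls at chr18:62804795, chr18:62815285 and chr4:141921173 were lost in 6 of 14, 5 of 14 and 3 of 13 alternative settings.

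DEPTOR, the mTOR inhibitor, had all 10 of its peaks inside the gene, from 14056 to 114160 bp past its start. At chr8:119909085-119909666, in the gene and 35654 bp from its start, JJN3 had 4 CPM under pomalidomide, 12.8 under GNE-781, 4.85 under the combination and 6.01 under DMSO. KMS11 had 9.22, 12.6, 4.45 and 25.9 CPM in the same order. The KMS11 DMSO library stood highest of all 8, the combination was lowest in KMS11, and in JJN3 the GNE-781 library stood above the other 3. Relative to DMSO this peak stood at -1.33 ± 0.35 under pomalidomide and at -1.97 ± 0.38 under the combination, with within-line ratios of -0.28 in JJN3 and -2.38 in KMS11 under the combination. These are the values that chose the gene. Without the KMS11 DMSO library the changes were -0.06 ± 0.66 and -0.64 ± 0.69, without the KMS11 combination library the combination stood at -1.15 ± 0.61, and without either library it was no longer called. The pomalidomide call was also lost without the pomalidomide library of JJN3 (-1.18 ± 0.41) or of KMS11 (-1.69 ± 0.59) and without the combination library of either line (-1.31 ± 0.36 each).

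A second DEPTOR peak, chr8:119887602-119887953, 14056 bp from the start, was called under the combination (-1.5 ± 0.43). It had 3.33 CPM under pomalidomide, 6.41 under GNE-781, 1.94 under the combination and 4.51 under DMSO in JJN3, which are 10, 10, 4 and 6 counts. In KMS11 it had 9.22, 6.14, 4.81 and 14.5 CPM. The combination was the lowest library of each line. The call was lost without the combination library of JJN3 (-1.46 ± 0.47) or of KMS11 (-1.67 ± 0.8) and without KMS11 DMSO (-0.91 ± 0.83). The neighbour chr8:119908501-119908942 lies 143 bp from the peak at 35654 bp and had its KMS11 values in a like order, 9.43, 7.76, 6.41 and 16.3 CPM, while in JJN3 DMSO, at 2.25 CPM, was the lowest library. It was not called under any drug. In KMS11 the DMSO library was the highest of the line at 7 of the 10 DEPTOR peaks (70%, against 27% of all peaks), and in JJN3 at 1 of 10 (10%, against 27.5%). The KMS11 count rests on 1 library, whose value at the peak at 35654 bp was part of what chose the gene. It is a description only.

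The farthest DEPTOR peak, chr8:119987491-119988272, was the one called higher with GNE-781 within KMS11. It had 8.33 CPM under pomalidomide, 13.5 under GNE-781, 12.1 under the combination and 12.8 under DMSO in JJN3, and 9.65, 27.8, 15.85 and 11.65 CPM in KMS11. In KMS11 the GNE-781 library stood highest and the combination next.

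The start of DEPTOR was not called with any drug. Its promoter peak, chr8:119873428-119874833, is given in the deposited table to the antisense transcript KB-1471A8.1 and so falls outside the 60. It is the only peak in or at one of the 6 genes under another symbol. It had 128 CPM under pomalidomide, 119 under GNE-781, 116 under the combination and 128 under DMSO in JJN3, and 71.8, 61.8, 82.8 and 84.4 CPM in KMS11. The lines did not overlap, and within a line the treatments lay close together, with changes of -0.12 ± 0.17 with pomalidomide, -0.28 ± 0.18 with GNE-781 and -0.08 ± 0.17 with both. Per length it had 87.4 CPM per kb in JJN3 and 53.5 in KMS11, above the median promoter peak at 33.3 and 32.5. The highest of the 10 peaks inside the gene, chr8:119933452-119934201, had 27.7, 34, 35.4 and 31.6 CPM in JJN3 and 29.8, 25.2, 24.2 and 36.2 CPM in KMS11, and was not called with any drug. Peaks nearest to other genes within 2000000 bp of DEPTOR had medians of -0.17 with pomalidomide, -0.15 with GNE-781 and -0.18 with the combination, with 4, 0 and 9 of 92 called.

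**Figure D2:**
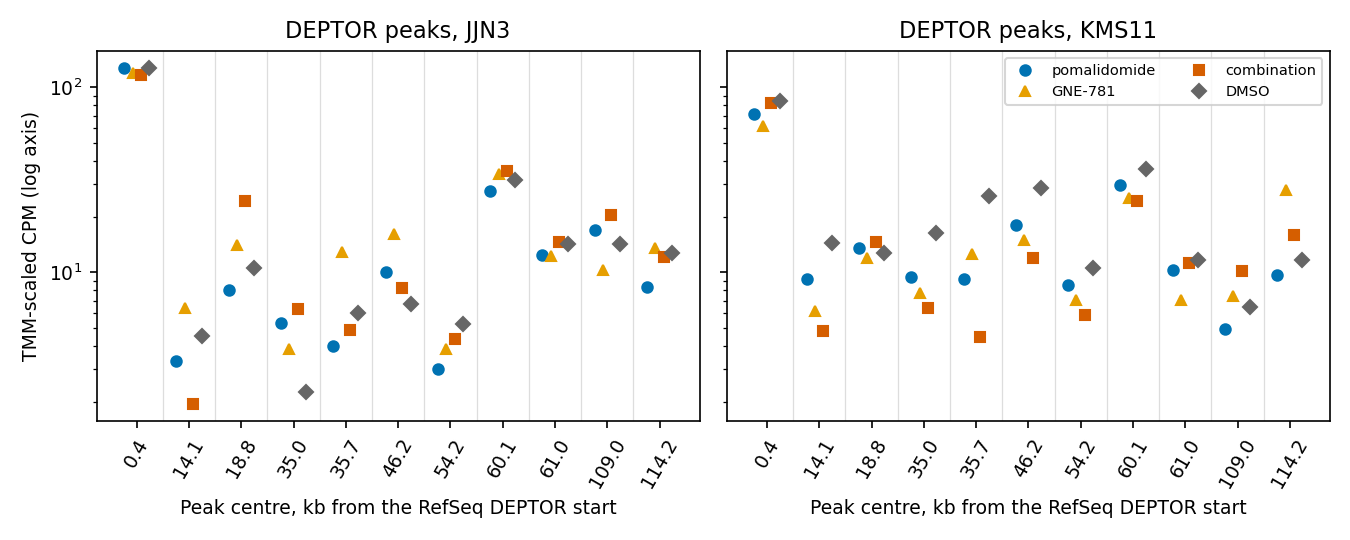
CPM (log axis) of the 10 DEPTOR peaks and of its promoter peak (leftmost, under an antisense symbol), by distance of the peak centre from the RefSeq start in kb, with 1 point per library. In KMS11 the DMSO point stands highest at 7 of the 10 peaks inside the gene, and at 35654 bp it has 25.9 CPM against 4.45 under the combination. These DMSO points are 1 library, and the peak at 35654 bp is the one that chose the gene.

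Counts summed over a gene's peaks were called for 0 of the 6 genes with pomalidomide, GNE-781 or both in edgeR, beside 0.595%, 0% and 3.49% of 24872 gene entries. The count at an unadjusted p under 0.05 was 2 with pomalidomide, 0 with GNE-781 and 0 with both. The DEPTOR sum, of the gene chosen for its pomalidomide value, stood at -0.39 ± 0.15 under pomalidomide and the RPTOR sum at 0.28 ± 0.13. DEPTOR summed to 98 CPM under pomalidomide, 127.7 under GNE-781, 134 under the combination and 109 under DMSO in JJN3. In KMS11 it summed to 122.3, 127, 108.7 and 174.4 CPM. KMS11 DMSO was the highest of the 8, and the JJN3 values surrounded their own DMSO level. Without the JJN3 DMSO library the DEPTOR sum was called under pomalidomide (-0.68), and without the KMS11 DMSO library it stood at 0.01.

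The genes of the mTOR kinase and of its scaffolds had no peak called with a drug over both lines, and 1 RPTOR peak was called within JJN3. At the MTOR promoter peak, chr1:11262329-11262931, JJN3 had 58.6 CPM under pomalidomide, 62.2 under GNE-781, 35.4 under the combination and 73.7 under DMSO. KMS11 had 34.1, 34.9, 40.2 and 31.8 CPM. In JJN3 the combination was lowest and DMSO highest, whereas in KMS11 the combination was highest and DMSO lowest. The pomalidomide effect in JJN3 less that in KMS11 was -0.69 ± 0.26 (adjusted p = 0.407) and the GNE-781 effect -0.68 ± 0.26 (adjusted p = 0.54), so neither difference between the lines was called. The other MTOR peak, in the gene, lay between 3.01 and 7.69 CPM in JJN3 and between 4.4 and 7.3 CPM in KMS11.

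RPTOR, the mTORC1 scaffold gene, had a peak at its start, another 199600 bp into the gene and 12 more inside it. The peak at 199600 bp lay 645 bp from an annotated internal start. The peak at the RPTOR start, chr17:80544728-80545282, was low, with 6.33, 4.49, 8.73 and 8.27 CPM in JJN3 and 10.7, 11, 8.55 and 9.06 CPM in KMS11. The peak near the internal start, chr17:80743932-80744943, was the highest of the gene. It had 30.7 CPM under pomalidomide, 50.65 under GNE-781, 31 under the combination and 34.6 under DMSO in JJN3, and 99.05, 90.55, 78 and 62.9 CPM in KMS11. Every KMS11 library was above every JJN3 library there, and the line difference was -1.21 ± 0.14 (adjusted p = 1.05e-10). RPTOR had 3 more line calls, in both directions: chr17:80760366-80760847 (2.89 ± 0.31, adjusted p = 1.98e-12) and chr17:80891530-80892036 (2.31 ± 0.28, adjusted p = 1.22e-10) were higher in JJN3, and chr17:80910052-80910350 (-1.52 ± 0.43, adjusted p = 0.00244) was lower. At chr17:80760366-80760847 JJN3 had 19.3, 8.34, 21.8 and 13.5 CPM and KMS11 2.79, 1.94, 1.42 and 2.59 CPM, with no overlap. At chr17:80846093-80846763, in the gene, JJN3 had 16.7 CPM under pomalidomide, 8.34 under GNE-781, 22.8 under the combination and 8.27 under DMSO, and KMS11 had 23.8, 19.7, 23.15 and 16.3 CPM. In JJN3 both libraries with pomalidomide were above both without it, and the effect there was 1.25 ± 0.33, the RPTOR peak called within that line. That call was lost without any 1 of the JJN3 libraries and in DESeq2. Over both lines RPTOR peaks lay between -0.54 and 1 with pomalidomide, -0.64 and 1.22 with GNE-781 and -0.54 and 0.84 with both.

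RICTOR, the mTORC2 scaffold gene, had 95.2% of its summed JJN3 level and 97.5% of its KMS11 level in its promoter peak, chr5:39073288-39075277. This peak had 167 CPM under pomalidomide, 128 under GNE-781, 140 under the combination and 133 under DMSO in JJN3, and 75.25, 81.8, 76.6 and 99.4 CPM in KMS11. It was higher in JJN3 (0.78 ± 0.12, adjusted p = 1.67e-07), short of the 2-fold difference that a line call also needed. A small peak in the gene, chr5:38968622-38969011, was called higher in JJN3 (1.75 ± 0.38, adjusted p = 9.15e-05), with 8.33, 7.05, 9.21 and 3.76 CPM against 1.93, 1.94, 2.49 and 2.07 CPM in KMS11.

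INPP4B, the lipid phosphatase gene, had a higher CPM in KMS11 than in JJN3 at most of its peaks, and 3 of its peaks were higher under the combination. Its RefSeq gene spans 823376 bp on the minus strand of chromosome 4. The 300 bases around 3 of its RefSeq starts (250 before and 50 after each, build GRCh38.p14, minus strand, 5′ to 3′) are shown because these peaks carry the drug and line differences below. The upstream start lies in a promoter peak that differed between the lines, and the internal starts lie in or across the peaks that were higher under the combination. Capitals mark matches to listed motifs on either strand.
INPP4B upstream start, chr4:142846252-142846551: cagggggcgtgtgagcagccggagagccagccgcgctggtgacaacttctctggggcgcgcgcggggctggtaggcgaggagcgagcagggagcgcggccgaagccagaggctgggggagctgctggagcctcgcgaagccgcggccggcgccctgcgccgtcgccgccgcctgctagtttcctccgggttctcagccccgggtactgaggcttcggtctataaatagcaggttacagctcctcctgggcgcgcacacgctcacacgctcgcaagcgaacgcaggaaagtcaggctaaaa
INPP4B internal start, chr4:142405397-142405696: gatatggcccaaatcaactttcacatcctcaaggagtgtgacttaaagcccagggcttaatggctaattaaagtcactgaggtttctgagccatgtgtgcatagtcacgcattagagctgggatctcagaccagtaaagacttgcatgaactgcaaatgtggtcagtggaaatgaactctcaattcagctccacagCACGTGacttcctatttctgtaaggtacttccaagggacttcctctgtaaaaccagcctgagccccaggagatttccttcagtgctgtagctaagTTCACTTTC
INPP4B internal start, chr4:142405810-142406109: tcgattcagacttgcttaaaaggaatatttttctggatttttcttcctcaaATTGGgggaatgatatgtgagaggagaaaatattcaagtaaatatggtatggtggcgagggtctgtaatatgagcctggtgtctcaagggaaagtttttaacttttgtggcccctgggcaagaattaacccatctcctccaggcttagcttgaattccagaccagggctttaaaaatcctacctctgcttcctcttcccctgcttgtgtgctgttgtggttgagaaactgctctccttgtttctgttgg
The upstream window has a GC content of 68.7% with 34 CpG and held none of the 12 motifs searched. The internal windows have 45.7% and 43% with 2 CpG each, against medians of 58.7% and 14 CpG over the 35114 RefSeq promoter windows of that length. In the internal window at chr4:142405397 the capitals are the E-box CACGTG, found in 7.26% of the promoter windows, at base -54 from the start base counted as 0, and the IRF motif GAAANNGAA read on the other strand at base 41, found in 8.11%. In the other internal window they are the NFY motif CCAAT, read on the other strand at base -199 and found in 34.6%. A match is a run of letters and not a measured site.

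The peak over the internal starts, chr4:142405135-142405937, holds all 300 bases of the window at chr4:142405397 and 128 of those of the next. It had 20.7 CPM under pomalidomide, 19.2 under GNE-781, 27.6 under the combination and 12 under DMSO in JJN3, and 15.65, 13.3, 19.05 and 10.9 CPM in KMS11. In each line the combination was the highest library and DMSO the lowest, and the change under the combination was 0.95 ± 0.29. Its narrow neighbour chr4:142406079-142406581, which holds 31 bases of the second window, had the same extremes, with 2, 3.85, 6.3 and 0.75 CPM in JJN3 and 8.58, 5.17, 9.79 and 3.88 CPM in KMS11 (1.64 ± 0.5). The JJN3 DMSO value is 1 count, so the JJN3 ratio of the combination to DMSO, 8.38, has a 95% exact counting interval of 1.26 to 356, which covers counting error only, while that of KMS11 is 2.52 (1.4 to 4.81). Both calls were lost without the combination library of either line or without the DMSO library of either line, with changes of 0.8 to 1.17 and of 1.42 to 2.71.

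A peak in the gene 28924 bp from the upstream start, chr4:142817346-142817875, was also higher under the combination (1.44 ± 0.44). It had 4, 4.49, 3.39 and 0.75 CPM in JJN3, where DMSO is again 1 count (ratio 4.51, counting interval 0.58 to 203), and 6.65, 10.7, 14.8 and 5.44 CPM in KMS11 (2.72, 1.67 to 4.62). DMSO was the lowest library of each line. Without the KMS11 combination library the change was 0.72 ± 0.82, and without the KMS11 or JJN3 DMSO library it was 2.71 ± 1.13 or 1.25 ± 0.45, each time with no call.

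The INPP4B peak that was lower under the combination, chr4:141977331-141978189, is intergenic, 44971 bp beyond the end of the gene. It had 28.3 CPM under pomalidomide, 35.9 under GNE-781, 17.9 under the combination and 34.6 under DMSO in JJN3, and 47.4, 28.1, 32.2 and 65.7 CPM in KMS11. The combination stood lowest in JJN3, and DMSO stood highest in KMS11, where every drug library was lower. The change under the combination was -1 ± 0.22, and the call was lost without the combination library of JJN3 (-0.89 ± 0.26) or of KMS11 (-1.24 ± 0.36) or without KMS11 DMSO (-0.67 ± 0.34).

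**Figure D3:**
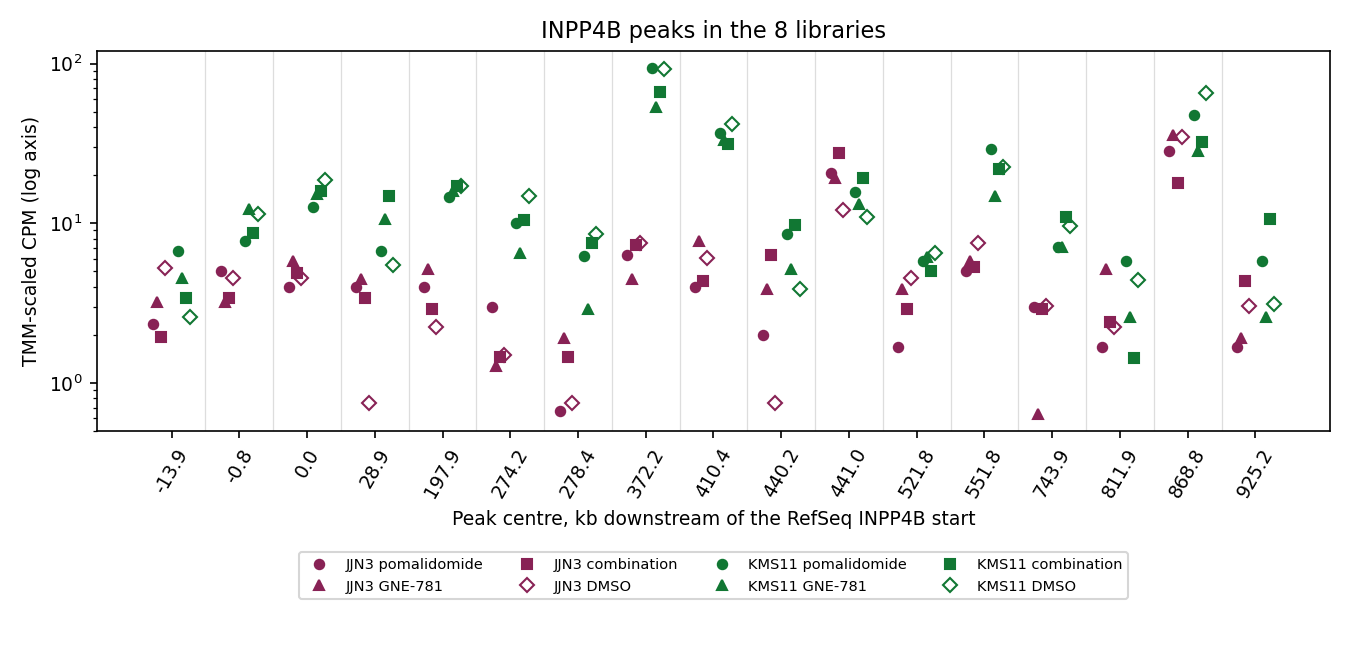
CPM (log axis) of the 17 INPP4B peaks in the 8 libraries, by distance of the peak centre downstream of the RefSeq start in kb; colour gives the line and symbol the treatment. KMS11 stands above JJN3 at most positions, with 53.7 to 93.7 CPM against 4.49 to 7.52 CPM in JJN3 at 372231 bp, and the lines lie together at 440999 bp, over the internal starts.

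PHLPP1, the AKT phosphatase gene, had the reverse line pattern and a distal peak that was higher with pomalidomide in both lines. Its promoter is shown because it had the highest level per length of the 6 genes' starts in JJN3 and was not called with any drug (RefSeq, GRCh38.p14, plus strand, 250 bases before to 50 after the start, capitals as above).
PHLPP1 start, chr18:62715291-62715590: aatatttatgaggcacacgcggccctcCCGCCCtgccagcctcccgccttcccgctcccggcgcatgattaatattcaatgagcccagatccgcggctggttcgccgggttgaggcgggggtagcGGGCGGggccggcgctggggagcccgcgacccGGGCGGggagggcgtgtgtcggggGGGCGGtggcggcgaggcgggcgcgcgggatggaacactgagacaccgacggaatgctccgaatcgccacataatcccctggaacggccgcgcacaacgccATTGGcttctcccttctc
The window has a GC content of 69.3% with 37 CpG. The capitals are 4 matches to the SP and KLF motif GGGCGG, found in 45% of the promoter windows, and 1 to the NFY motif. The peak around it, chr18:62714773-62716444, had 408 CPM under pomalidomide, 366 under GNE-781, 338 under the combination and 330 under DMSO in JJN3, and 117, 125, 136 and 129 CPM in KMS11. Every JJN3 library was above every KMS11 library, and the line difference was 1.51 ± 0.11 (adjusted p = 3.95e-18), while the drug changes lay between 0.05 and 0.09. Per length it reached 215.7 CPM per kb in JJN3 and 75.8 in KMS11, and 5 of 15906 promoter peaks were above it in JJN3 and 696 in KMS11.

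The distal peak, chr18:63040593-63041571, is intergenic, 60160 bp beyond the end of PHLPP1 and 81775 bp from BCL2, the gene of the apoptosis inhibitor, on its other side. It had 138 CPM under pomalidomide, 86.6 under GNE-781, 155 under the combination and 61.6 under DMSO in JJN3. In KMS11 it had 59.8, 24.9, 51.8 and 29 CPM. In each line both libraries with pomalidomide were above both without it. The change was 1.09 ± 0.19 under pomalidomide and 1.07 ± 0.19 under the combination, against 0.15 ± 0.21 under GNE-781 (adjusted p = 0.958). Within the lines the log2 ratios to DMSO were 1.16 under pomalidomide and 1.32 under the combination in JJN3, and 1.03 and 0.82 in KMS11. The combination call held whichever library was left out, and the pomalidomide call was lost without JJN3 DMSO (0.85 ± 0.24) or KMS11 pomalidomide (0.95 ± 0.22). Of the 7 peaks called under the combination it was the one that DESeq2's Wald test also called, and 3 of the others had no adjusted p there. The 4 other intergenic PHLPP1 peaks, 2228 to 70270 bp beyond the gene, were not called with any drug.

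**Figure D4:**
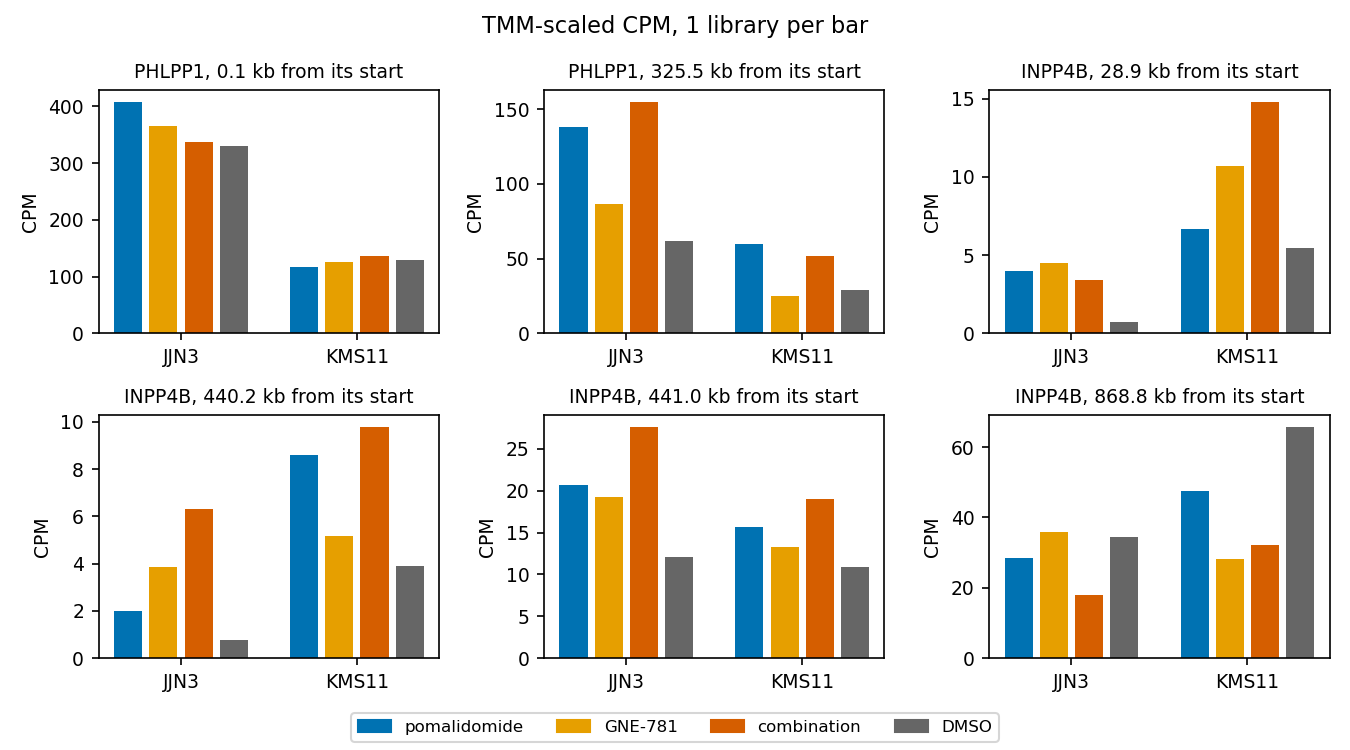
CPM in each of the 8 libraries at the PHLPP1 promoter peak, the distal PHLPP1 peak and the 4 INPP4B peaks called under the combination; 1 bar is 1 library, axes start at 0, and panel titles give the distance from the gene's RefSeq start. At the distal PHLPP1 peak the pomalidomide and combination bars stand at 138 and 155 CPM against 61.6 CPM under DMSO in JJN3, and at 59.8 and 51.8 against 29 CPM in KMS11.

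Between the lines, PHLPP1 had a higher CPM in JJN3 and INPP4B in KMS11, while MTOR, RPTOR and DEPTOR as a whole differed by less. Of the 60 peaks 31 were called (51.7%), beside 31.9% of all peaks: 16 were higher in JJN3, beside 16.1% of all peaks, and 15 lower, beside 15.8%. PHLPP1 gave 12 of the higher ones and no lower one, INPP4B gave 12 of the lower ones and no higher one, RPTOR gave 2 of each, DEPTOR 1 of each and RICTOR 1 higher. The 8 libraries split by line without overlap at 36 of the 60 peaks (60%, beside 42.3% of all peaks), 13 of 15 for PHLPP1 and 11 of 17 for INPP4B. The widest difference was at an INPP4B peak 372231 bp into the gene, chr4:142473466-142475142, with 6.33 CPM under pomalidomide, 4.49 under GNE-781, 7.27 under the combination and 7.52 under DMSO in JJN3, and 93.7, 53.7, 66.8 and 91.9 CPM in KMS11 (-3.59 ± 0.19, adjusted p = 3.77e-25). Another in the gene, chr4:142435653-142436535, stood at -2.75 ± 0.23 (adjusted p = 1.49e-16). The INPP4B promoter peaks stood at -1.68 ± 0.27 (adjusted p = 2.58e-07) over the upstream start and -1.22 ± 0.31 (adjusted p = 0.000552) 788 bp before it. The peak over the internal starts was the only INPP4B peak higher in JJN3 and was not called (0.43 ± 0.2, adjusted p = 0.063). Among PHLPP1 peaks the difference ran from 0.12 to 2.47, the highest at chr18:62827674-62827901, with 10.7, 10.9, 20.85 and 9.02 CPM in JJN3 and 2.14, 3.56, 1.78 and 2.07 CPM in KMS11. DEPTOR had its farther peak chr8:119982584-119982929 higher in JJN3 (1.14 ± 0.24, adjusted p = 6.6e-05) and the peak at 14056 bp lower (-1.11 ± 0.33, adjusted p = 0.00349). The first of these 2 calls was lost without the pomalidomide library of either line and the second without the pomalidomide or DMSO library of either line.

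Summed over its peaks, PHLPP1 had 763.2 ± 42.8 CPM in JJN3 and 272.3 ± 12.7 CPM in KMS11 (SD, 4 libraries each, 1 per treatment), a difference of 1.49 ± 0.08. INPP4B had 103.5 ± 7.5 CPM in JJN3 and 293.8 ± 46.3 CPM in KMS11 (-1.5 ± 0.1). These 2 sums were called, beside 23.1% of all gene entries. RICTOR had 149.4 ± 17.2 CPM in JJN3 and 85 ± 11.3 CPM in KMS11 (0.83 ± 0.11), MTOR had 62.9 ± 16.1 and 41.2 ± 4.5 CPM (0.57 ± 0.14, adjusted p = 0.00058), and RPTOR had 210.9 ± 12.6 and 244.1 ± 30.6 CPM (-0.21 ± 0.09, adjusted p = 0.0401), all under 2-fold. DEPTOR had 117.2 ± 16.6 CPM in JJN3 and 133.1 ± 28.6 CPM in KMS11 (-0.16 ± 0.11, adjusted p = 0.204). With RefSeq gene bounds, which bring in its promoter peak, the DEPTOR difference was 0.23, the other way round.

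Peaks of neighbouring genes shared much of these line differences. Over peaks nearest to other genes within 2000000 bp, the median difference was 1.49 around PHLPP1 (107 peaks, 96.3% above 0), -1.11 around INPP4B (87 peaks, 9.2% above 0), 1.31 around RICTOR (100 peaks), 0.79 around MTOR (148 peaks), 0.54 around DEPTOR (92 peaks) and -0.26 around RPTOR (174 peaks), against -0.08 over all peaks. Copy number was not measured, so the copies of these regions and the opening of their chromatin cannot be told apart. With the neighbours' median taken off, 15 of the 60 peaks had an adjusted p under 0.05 in the fit above, a difference of the same sign and at least 2-fold, and 9 of these were among the 31 called without it. The 15 were 0 of PHLPP1, 5 of INPP4B, 0 of RICTOR, 5 of RPTOR, 5 of DEPTOR and 0 of MTOR. That p tests a difference from 0 and not from the neighbours' median, so the shifted differences were not themselves tested. The 5 of DEPTOR include the peak at 35654 bp, which chose the gene. The same count was not made over all peaks. The median of the PHLPP1 peaks less their neighbours was 0.02, that of INPP4B -0.37 and that of DEPTOR -1.14.

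**Figure D5:**
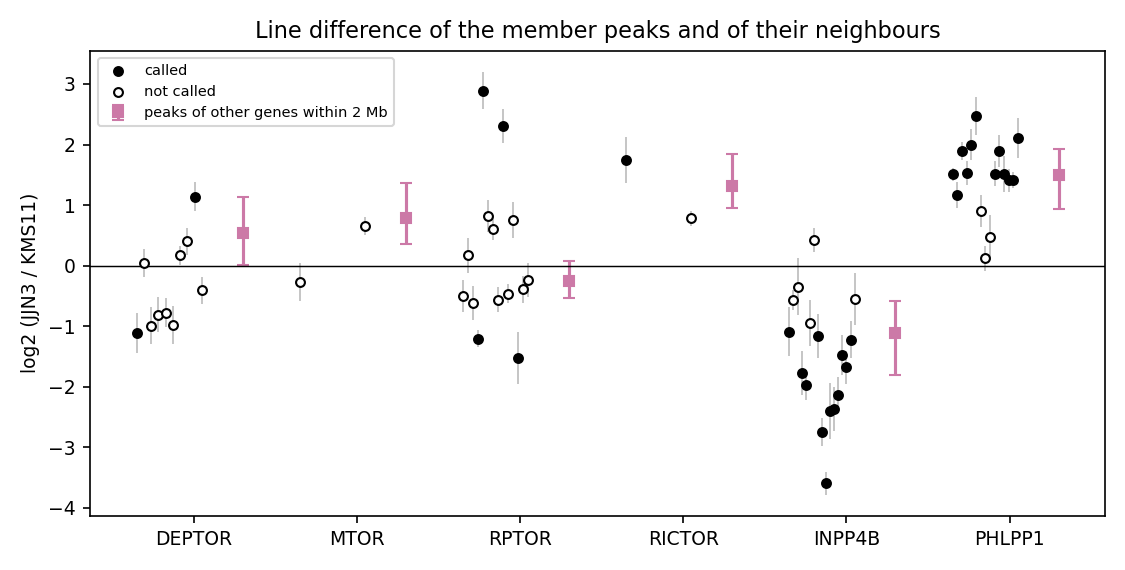
Log2 difference of JJN3 over KMS11 (± SE) of each of the 60 peaks by gene, filled where called, beside the median and quartiles of peaks nearest to other genes within 2000000 bp (squares with bars). PHLPP1 peaks lie around their neighbours' median of 1.49, INPP4B peaks reach -3.59 against a neighbours' median of -1.11, and DEPTOR peaks lie mostly below the 0.54 of their neighbours.

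No difference between the lines in a drug effect was called at the 60 peaks. In edgeR 0 were called for pomalidomide, beside 0.0675% of all peaks, with 7 (11.7%, against 7.99% of all) at an unadjusted p under 0.05, and 0 for GNE-781, beside 0.00964%, with 10 (16.7%, against 7.14%). DESeq2 called 0 for each, with 0 and 1 at that level, beside 723 and 478 of all peaks. The lowest p for GNE-781 was at the DEPTOR peak at 35654 bp, where the effect in JJN3 less that in KMS11 was 1.73 ± 0.52. For the DEPTOR sum this difference was 0.66 ± 0.19. The values that chose the gene enter both differences, so they are a description with no p. At the distal PHLPP1 peak the pomalidomide effect differed by -0.06 ± 0.26 between the lines (adjusted p = 0.985).

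Elsewhere in the pathway, a peak of STK11 rose with pomalidomide as well as with the combination. The 83 other genes listed in 8 groups had 271 peaks at 77 genes with a peak. Under pomalidomide 2 of the 271 peaks rose and 0 fell (0.738%), under GNE-781 0 were called, and under the combination 6 rose and 5 fell (4.06%), each near or below the share of all peaks given above. STK11 encodes the kinase LKB1, which activates AMPK. Its peak at chr19:1180341-1180846 rose by 1.53 ± 0.38 under pomalidomide and 1.68 ± 0.38 under the combination. The treated libraries had 12.66 and 13.58 CPM against 3.76 under DMSO in JJN3, and 12.65 and 14.42 against 4.66 in KMS11. Under the combination peaks also rose near PIK3CG, a catalytic PI3K subunit gene (1.73 ± 0.36), in PRR5L, an mTORC2 partner gene (1.57 ± 0.42), and at a further site in STK11 (1.39 ± 0.4). JJN3 DMSO had 2.25, 0.75 and 2.25 CPM at these 3 in that order, so the JJN3 rises start from few counts. With both drugs peaks fell in the insulin receptor substrate gene IRS1 (-1.59 ± 0.45), in PIK3CA (-1.85 ± 0.55), in LPIN1 (-0.97 ± 0.28) and in FNIP2, a folliculin partner gene (-0.72 ± 0.22). Single peaks of the listed genes were not followed in DESeq2 or with a library left out.

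Summed over its peaks, 1 of the 77 listed genes was called higher under the combination, STK11 (0.83 ± 0.19). Called lower were 2, FNIP2 (-0.49 ± 0.14) and IRS1 (-0.48 ± 0.14). That is 3.9% of the listed genes, and their median was 0, as over all genes. Under pomalidomide and GNE-781 no listed sum was called, with medians of 0.05 and 0 against 0.01 and 0 over all genes. Between the lines 13 sums (16.9%, beside 23.1% of all gene entries) were called, 7 higher and 6 lower in JJN3. Among those of lowest p, WDR24 and LAMTOR5 of amino acid sensing were higher in JJN3, with 52.7 CPM in JJN3 and 11.5 CPM in KMS11 for WDR24 (2.21 ± 0.16), and so were PIK3CG, PRKAA1 and FOXO1. TSC2, a brake on mTORC1, was lower in JJN3 at 8.3 CPM against 29.4 CPM in KMS11 (-1.91 ± 0.22), and PIK3R5, PRR5L and FOXO4 were lower as well. Of the listed genes, RRAGA, ITFG2, PRKAA2 and RPS6KB1 were among those with no peak under their symbol in the deposited table.

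The peaks whose levels followed the DEPTOR peak at 35654 bp most closely over the 8 libraries, by Pearson's r of log2 CPM among 42598 peaks with a mean of at least 20 counts, were nearest to ICK (0.96), RPIA (0.958), TAF4B (0.942), HMGB1P1 (0.942) and RP11-10J5.1 (0.942). Among gene sums, 5926 with at least 3 peaks and a mean of 100 counts, ARMC2 (0.967), CYTIP (0.911), HSPD1P15 (0.887), LINC01221 (0.883) and TLL1 (0.882) came closest to DEPTOR. The 8 points share lines and treatments, the DEPTOR peak was chosen for this pattern, and these values are a description only.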

How the data were processed

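The authors deposited 1 table of raw read counts in 62528 peaks, merged over libraries, on build GRCh38. The submitters' processing notes name MACS2 2.1.1.20160309, Bowtie2 2.3.5.1, Trim Galore 0.6.4 with cutadapt 2.5, R 4.1.2 and SAMtools 1.10. How duplicates and the transposase offset were handled, and whether peak starts count from 0 or 1, is not given in the sources used here.

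Counts were fitted with edgeR 4.0.16 (R 4.3.3; trimmed mean of M-values, mean CPM of at least 2, which removed 294 peaks) by the quasi-likelihood test, with treatment and line as terms (3 residual degrees of freedom). Line-by-drug terms had 2. The spread of each peak was pooled with that of other peaks, at 62.8 prior degrees of freedom in the first model and 153 in the second. Adjusted p is Benjamini-Hochberg over all features tested, and line calls also needed a 2-fold difference. Library totals of 1366628 to 5435673 limit the precision at small peaks. The scripts were tested on simulated data. Alternatives were DESeq2 1.42.0, other scalings, filters and models, and leaving out each library. Members and gene lists were chosen with earlier results of these data known. Named were promoter peaks, peaks called with a drug, some of those called between the lines and some extremes of a gene. So were up to 10 called pathway genes or peaks per comparison, by lowest p. Some called or listed pathway genes are not reported here.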

Additional observations from a re-analysis of the deposited data

How the results depend on the processing

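Of the 60 peaks, DESeq2's Wald test called 1 under pomalidomide, 1 under the combination and 1 for the combination against GNE-781, where edgeR called 2, 7 and 2. Over all peaks DESeq2 called 72 under pomalidomide and 394 under the combination, against 780 and 2979 in edgeR, and 852 of the edgeR combination calls had no adjusted p there. With no line term the calls among the 60 peaks were 0 in each of these 3 comparisons, and with scaling by total counts 1 was left for the combination against GNE-781. Leaving out 1 library gave 0 to 2 calls under pomalidomide, 1 to 7 under the combination, 0 to 2 for the combination against GNE-781 and 28 to 35 between the lines. Summed counts gave 0 to 1 called gene under pomalidomide. With the neighbours' median taken off the difference but not entering its p, 15 peaks met the line rule, against 31 without it, and 9 were in both. For effects within a line, added after the data were seen, DESeq2 called 0 with pomalidomide in JJN3, 1 in KMS11 and 0 with GNE-781 in KMS11, where edgeR called 3, 4 and 5. Leaving out 1 library gave 0 to 3 for pomalidomide in JJN3, 2 to 4 in KMS11, 0 to 1 for GNE-781 in JJN3 and 0 to 7 in KMS11. Except where given, counts over all peaks in these settings are not reported here. Nothing about the 60 peaks in particular is therefore read from these shifts, and their cause was not tested. No result changed sign while called. The filter at a mean CPM of 5, no filter, robust dispersion and DESeq2's size factors within edgeR left every count of called members within 1.5 times. No paired analysis was possible because the labels give no replicate numbers and each line and treatment has 1 library; the line itself is a term of the model. Small peaks rest on few counts, down to 1 in the DMSO library of JJN3.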
